A study of Mus musculus with 32 samples.

Results

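Olfr110 (ENSMUSG00000090894) and Olfr111 (ENSMUSG00000090675) are a pair of neighbouring olfactory receptor genes, and their reads were followed in the spinal cord of 32 mice. They were taken by symbol, as 2 of the 42524 genes in the count table, and were chosen by their read counts, after earlier results had placed Olfr111 among the genes that differed most between untreated G93A and wildtype (WT) mice at 155 days. The values of that contrast are given below as a description with no test. The study asked whether the nitrone compound OKN-007, given in drinking water, changes the course of disease in G93A mice. The 8 groups held 4 mice each. At 90 and at 155 days there were WT and G93A mice, each either left untreated or given OKN-007. All mice were on the C57BL/6J background, and the G93A mice also carried the B6-Tg(SOD1-G93A)1Gur/J transgene, a human SOD1 gene with the G93A mutation that causes a motor neuron disease. The transgene is present in every cell, as a model of inherited amyotrophic lateral sclerosis (ALS), and its human transcript was not analysed here. The methods give age at the first time point as slightly later than the 90 days of the labels, describe the experimental mice as predominantly female, and place mice killed at these ages in the cohorts given the higher of the doses used, whereas the labels give neither dose nor sex. RNA came from a piece of whole spinal cord of each mouse, so that a gene's reads come from every cell type of the tissue together.

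Each library held between 19701722 and 30138257 counted reads (median 26658755). CPM, the unit of levels below, are counts scaled to a common library total after trimmed mean of M-values (TMM) correction. At this depth 3 reads, the limit that a count of 0 allows, correspond to 0.152 CPM in the smallest library and less in the others. No 2 libraries of a group agreed within sampling noise (the closest pair differed by a chi-square of 3.80 per gene). The labels name no batch.

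Olfactory receptors are G protein-coupled receptors that each sensory neuron of the nose chooses from a very large gene family. Binding of an odorant activates the G protein subunit encoded by Gnal, the adenylate cyclase Adcy3 and a cyclic nucleotide-gated channel that contains Cnga2. Some members of the family are also transcribed outside the nose, and transcripts of Olfr110 and Olfr111 have been described in mouse microglia, the resident macrophages of the central nervous system. Microglia multiply and change their transcripts in the spinal cord of SOD1 mutant mice.

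In the GENCODE M21 annotation of GRCm38, both genes are protein coding and lie on the plus strand of chromosome 17. Olfr110 spans chr17:37492468-37500207 and Olfr111 spans chr17:37508030-37532449. They are 7822 bases apart with 0 other olfactory receptor genes between them, and no other annotated gene overlaps either. Each has its whole coding sequence in a single exon, the last, after a 5′ untranslated exon in every transcript except Olfr111-201, which has 1 exon. The coding sequences, 954 bases each with the stop codon, are identical at 936 positions (98.1%), and the 18 differences include no insertion or deletion. The longest stretch without a difference was 416 coding bases. Among all windows of 50 bases in the exon models, 542 of the 1702 of Olfr110 (31.8%) and 542 of the 2594 of Olfr111 (20.9%) occurred in both genes, and none occurred in any other annotated gene. A read from such a window cannot be given to 1 of the genes, and the sources used here do not say how such reads were counted. Counts of each gene are therefore uncertain to the extent that reads were shared or dropped.

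At 155 days both genes were counted in every G93A mouse and almost nowhere in WT mice. Olfr110 had 6, 8, 3 and 4 reads in the 4 untreated G93A mice and 6, 6, 7 and 4 reads in the 4 G93A mice given OKN-007. It had 0 reads in all 4 untreated WT mice, and 0, 0, 1 and 0 reads in WT mice given OKN-007. The lowest G93A mouse thus lay above the highest WT mouse, by 3 reads to 1. Olfr111 had 41, 44, 36 and 25 reads in the untreated G93A mice and 62, 48, 52 and 30 reads in the treated ones. It had 0 reads in each untreated WT mouse, and its single read in treated WT mice fell in the same animal as the read of Olfr110. Both genes were therefore separated by genotype without overlap in each treatment, and so was Olfr1033 of the same family. Olfr287 and Olfr558, also of the family, were separated in the other direction, with every G93A mouse below every WT mouse. The pair was chosen with these counts known, and the share of all genes separated in this way was not counted. In the edgeR test given below, 39.5% of 18675 genes were called by genotype in untreated and 41.5% in treated mice. The plot of raw counts by group shows all 32 mice.

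**Figure D1:**
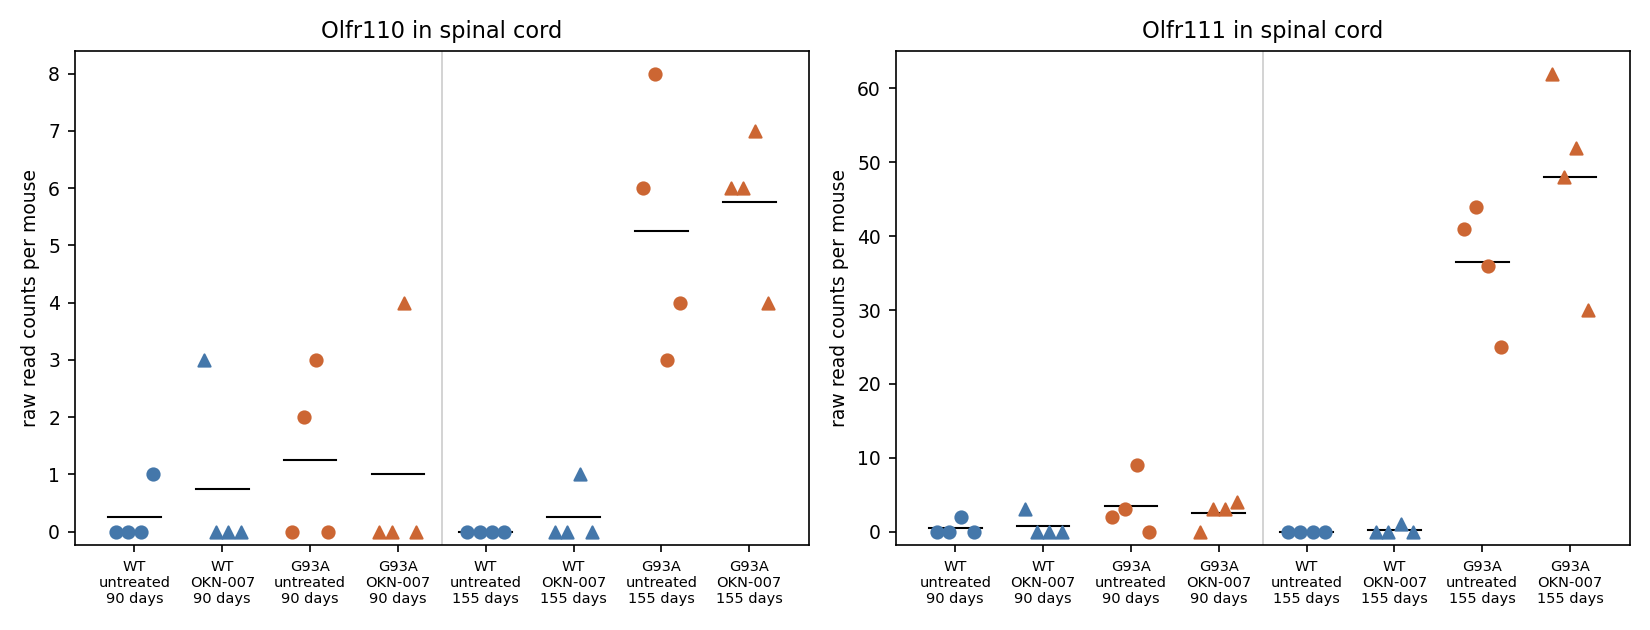
Raw read counts of Olfr110 (left) and Olfr111 (right) in each mouse (vertical axis, reads per library) for the 8 groups of 4 mice (horizontal axis), with circles for untreated mice, triangles for OKN-007, blue for WT and orange for G93A. Horizontal lines are group means. The 8 G93A mice at 155 days hold 3 to 8 reads of Olfr110 and 25 to 62 reads of Olfr111, and no other mouse exceeds 4 and 9.

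In untreated mice at 155 days, the contrast that chose the genes, Olfr111 had 1.43 ± 0.427 CPM in G93A (SD, n = 4) and Olfr110 had 0.205 ± 0.0979 CPM. Set against the floor of 3 reads in the smallest untreated WT library (0.129 CPM), the level of Olfr111 was at least 11.1-fold higher and that of Olfr110 at least 1.59-fold higher. In this contrast 39.5% of the 18675 genes tested passed an adjusted p of 0.05 in edgeR's quasi-likelihood test and 21.3% of those tested were called higher in G93A, so a difference by genotype was common at this age.

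The treated mice are other animals, although they too had been seen when the genes were chosen. Olfr111 had 1.70 ± 0.363 CPM in treated G93A and 0.00933 ± 0.0187 CPM in treated WT mice (SD, n = 4 each). The summed reads, 192 against 1, gave a ratio of 189 with a 95% interval of 33.6 to 7520, which covers counting error only. The edgeR test put the log2 fold change at 6.98 with a standard error of 0.57 (adjusted p = 8.29e-08), in a contrast where 23.3% of the genes tested were called higher and 41.5% in either direction. The fitted fold rests on the 1 WT read, and it was 8.55 on the log2 scale (adjusted p = 2.06e-06) without that mouse. Olfr111 passed edgeR's filter on low counts at 155 days only through the G93A groups in which it is high, so that a gene passing in this way had to differ, and the call is no independent evidence of a difference. Each gene was also tested alone by an exact two-sided permutation test over the mice. Olfr110 did not pass the filter and so had no edgeR test in this fit. It had 0.205 ± 0.0312 CPM in treated G93A and 0.00933 ± 0.0187 CPM in treated WT mice, a difference of 0.47 in mean log2(CPM + 0.5). The exact permutation p was 0.0286 for Olfr110 and for Olfr111 alike, which is the smallest that 4 mice against 4 allow. For both it was 0.229 after adjustment over the 16 tests of the same kind. With no low-count filter, edgeR called Olfr110 higher in this comparison (log2 fold change 3.95, adjusted p = 0.00356). The WT side of both genes is 1 read, and both were chosen with these counts known. None of these p-values is therefore independent evidence of a difference. In bulk tissue, more cells that transcribe a gene and more RNA per cell cannot be told apart.

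In tests over the mice, OKN-007 was not followed by a detectable change of either gene at 155 days. Among G93A mice, the treated animals had more Olfr111 reads in all, 192 against 146, but the groups overlapped from 30 to 44 reads. The ratio of summed Olfr111 reads was 1.26, with a counting interval of 1.01 to 1.57 that leaves out the spread between mice. Over the mice, the exact permutation p for Olfr111 was 0.429. The fitted log2 difference was 0.28 (standard error 0.29), with a 95% interval from -0.34 to 0.89, or 0.789-fold to 1.86-fold (edgeR adjusted p = 1). Olfr110 summed to 23 reads in treated and 21 in untreated G93A mice, a ratio of 1.05 with a counting interval of 0.554 to 1.99 (exact permutation p = 0.886). In WT mice the comparison rests on the single read of each gene, and edgeR gave an adjusted p = 1 for Olfr111. The genotype by treatment interaction of Olfr111 was -1.29 on the log2 scale (standard error 1.09, edgeR adjusted p = 1), and became 0.28 without the WT mouse that held this read. In these 3 comparisons edgeR called 0 of 18675 genes (0%) at an adjusted p of 0.05, and 755, 549 and 437 genes respectively had an unadjusted p under 0.05. DESeq2 called 0, 2 and 2 genes.

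At 90 days both genes were at or near the floor in every group. Olfr110 had 0, 0, 0 and 1 reads in untreated WT, 3, 0, 0 and 0 in treated WT, 0, 2, 3 and 0 in untreated G93A and 0, 0, 4 and 0 in treated G93A mice. Olfr111 had 0, 0, 2 and 0 reads in untreated WT, 3, 0, 0 and 0 in treated WT, 2, 3, 9 and 0 in untreated G93A and 0, 3, 3 and 4 in treated G93A mice. Reads of Olfr111 were thus found in 6 of 8 G93A mice and in 2 of 8 WT mice, with overlap in both treatments. Over both treatments the 8 G93A mice held 24 reads of Olfr111 and the 8 WT mice held 5, a ratio of 4.70 with a counting interval of 1.76 to 15.8. The difference in mean log2(CPM + 0.5) was 0.22, with an exact permutation p of 0.0469 within treatments and 0.25 after adjustment over 16 tests. Leaving out 1 mouse raised this p above 0.05 for 12 of the 16 mice, up to 0.0886. For Olfr110 the sums were 9 and 4 reads (exact permutation p = 0.5). None of the 4 comparisons within a treatment or genotype gave an exact permutation p under 0.05 for either gene. Neither gene passed the low-count filter at this age, where edgeR called 0.0265% of 18899 genes with the treatments averaged (0.0159% higher in G93A), and with no such filter its adjusted p for Olfr111 was 0.758.

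The 90-day reads did not stand alone. In the untreated G93A mice numbered 10 and 11, which held 3 and 9 of the Olfr111 reads, the other 780 olfactory receptor genes that passed no filter summed to 2064 and 1013 reads, against 88 to 623 reads in each of the other 30 mice (251.5 reads in the median mouse of all 32). The same 2 mice also had the highest scores of the disease-associated microglial genes at that age. The part of either in the 90-day reads was not tested. At 155 days the other receptor genes summed to 108 to 620 reads in G93A and 150 to 623 reads in WT mice.

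The levels at 90 and 155 days were compared within each genotype and treatment, and a difference of these changes between genotypes was not tested. Tissue content also differed between the ages. All 7 genes of an oligodendrocyte list were lower at 155 days in both WT groups, and 5 and 6 in untreated and treated G93A mice. The part of tissue sampling or processing in any change with age reported here was not tested. In treated G93A mice Olfr111 went from 10 reads in 4 mice at 90 days to 192 at 155 days, from 0.091 ± 0.0615 to 1.70 ± 0.363 CPM (SD, n = 4 each). The fit of all 32 mice put the log2 fold change at 4.14 with a standard error of 0.64 (edgeR adjusted p = 9.32e-06), in a contrast where 19.8% of 19829 genes were called higher and 32.9% in either direction. Olfr111 entered this fit only through the 155-day G93A groups in which it is high, so here too the call is no independent evidence. In untreated G93A mice, whose 155-day level chose the gene, the sums were 14 and 146 reads, a ratio of 9.73 with a counting interval of 5.61 to 18.2, in a contrast where 33.7% of genes were called (21% higher). In WT mice the reads fell from 5 to 1 over both treatments. These changes did not pass the test (edgeR adjusted p = 0.346 in untreated and 0.516 in treated WT mice), against 24.9% and 31.3% of genes called. Olfr110 went from 4 to 23 reads in treated G93A mice, a ratio of 5.63 with a counting interval of 1.92 to 22.4, and from 5 to 21 reads in untreated G93A mice, a ratio of 3.92 with a counting interval of 1.44 to 13.3. With no low-count filter, edgeR did not call the change of Olfr110 in treated G93A mice (adjusted p = 0.219). Read over all 8 groups, mean Olfr111 levels ran from treated and untreated G93A at 155 days, which overlapped, to untreated and treated G93A at 90 days, which also overlapped, and then to the WT groups at or under 0.0337 CPM, whose order is not resolved at this depth.

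At 155 days the reads were split between the genes in a similar way in every G93A mouse. Of those in the 8 G93A mice at 155 days, 338 of 382 (88.5%, exact 95% interval 84.8 to 91.5) were counted to Olfr111, and its share ranged only from 84.6% to 92.3% between mice. Divided by the length of the exon models, 1.751 and 2.643 kilobases, Olfr111 had 0.593 ± 0.149 and Olfr110 0.117 ± 0.0384 CPM per kilobase (SD, n = 8). The ratio of these levels was 5.09 over all reads, from 3.64 to 7.95 in single mice, and Olfr111 was higher in 8 of 8. The ratio was 4.34 when the reads were divided by the number of 50-base windows found in that gene alone. The plot of levels per kilobase shows the gap in each animal.

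**Figure D2:**
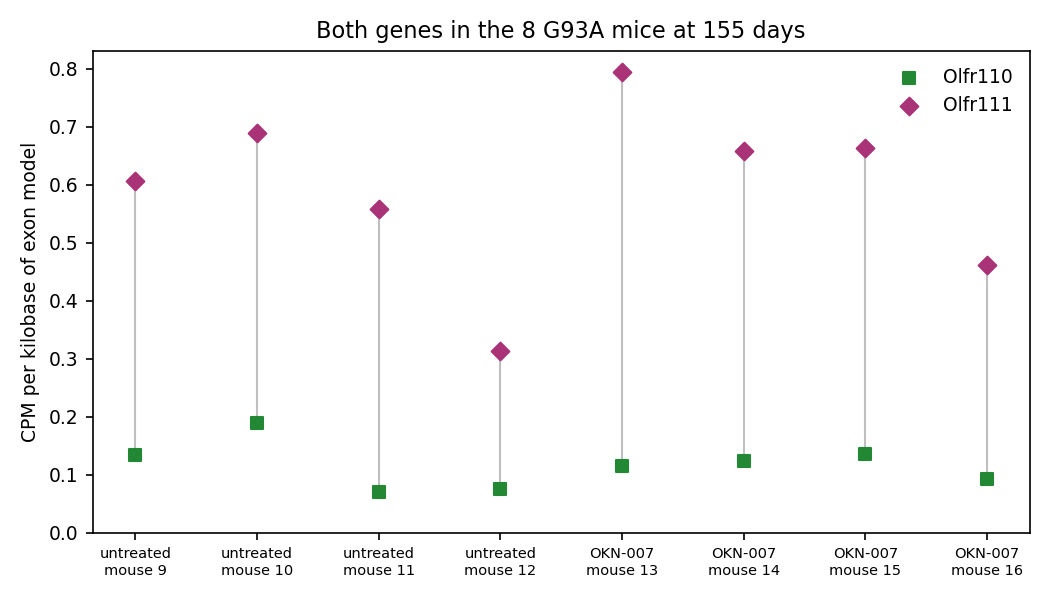
Level of Olfr110 (green squares) and Olfr111 (purple diamonds) in CPM per kilobase of exon model (vertical axis) for each of the 8 G93A mice at 155 days (horizontal axis), 4 untreated and 4 given OKN-007. Olfr111 lies above Olfr110 in all 8, between 0.313 and 0.795 against 0.0703 and 0.189.

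Most other genes of the family had few reads in spinal cord. GENCODE M21 names 1407 olfactory receptor genes, of which 793 were in the table, with a median of 8 reads over the 32 mice together. By reads in the 8 G93A mice at 155 days, Olfr111 ranked 3 and Olfr110 ranked 14 among the 793. The pair was chosen with its high counts in these mice known, and by reads in all 32 mice Olfr111 ranked 8. The nearest family members on chromosome 17 with a row were Olfr109, with 3 reads in the 8 WT and 1 in the 8 G93A mice at 155 days, and Olfr112, with 2 and 0. Olfr108, Olfr760-ps1, Olfr113 and Olfr114 were not in the table. These counted neighbours held at most 8 reads in any mouse.

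At 155 days 10 receptor genes, Olfr111 among them, passed the low-count filter. Olfr111 was chosen for its difference and is left out of the counts that follow. Of the other 9, 1 was called higher and 2 lower in untreated G93A mice, and 1 higher and 3 lower in treated ones. Over all genes 39.5% and 41.5% were called (21.3% and 23.3% higher), so calls among these 9 were near the share of all genes. Besides Olfr111, Olfr1033 on chromosome 2 was higher in G93A mice, by 1.10 on the log2 scale in untreated (edgeR adjusted p = 0.00214) and 1.2 in treated mice, and its range of 0.908 to 1.35 CPM in G93A lay above that of 0.233 to 0.672 CPM in WT mice. Olfr287, on chromosome 15, was lower in both treatments, with 13.1 to 17.3 CPM in WT and 5.86 to 9.02 CPM in G93A mice. Olfr558, on chromosome 7, was also lower in both, with 1.78 to 2.54 CPM in WT and 0.664 to 1.45 CPM in G93A mice. Olfr78 was lower in treated mice (log2 fold change -1.74), and had a log2 fold change of -0.57 in untreated mice that did not pass the test. Olfr920, Olfr1372-ps1, Olfr77, Olfr1564 and Olfr460 were not called in either. Olfr691 and Olfr1489, tested at 90 days only, gave no call there. The plot of receptor genes by genotype shows calls in both directions.

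**Figure D3:**
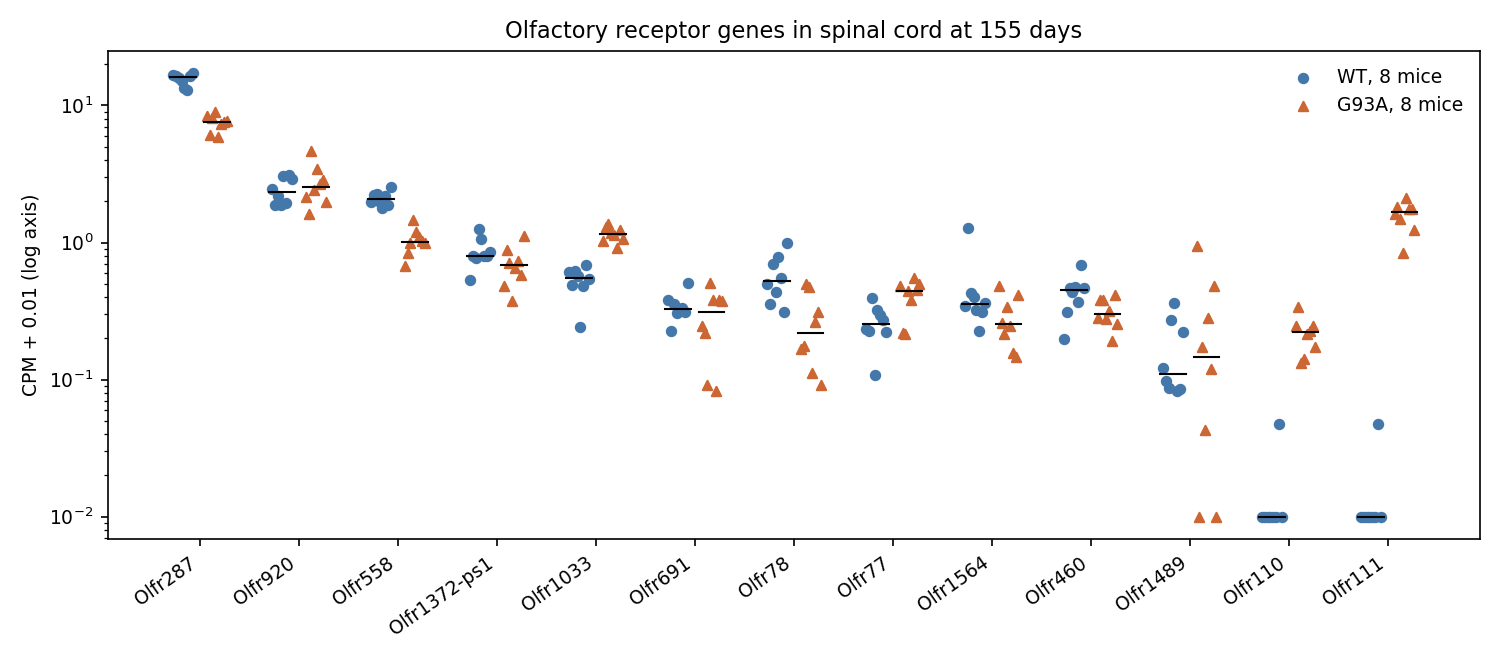
Level of each named olfactory receptor gene at 155 days in CPM + 0.01 (vertical axis, log scale) for 8 WT mice (blue circles) and 8 G93A mice (orange triangles), with treatments together and medians as lines. Olfr110, Olfr111 and Olfr1033 are separated upwards in G93A mice, and Olfr287 and Olfr558 downwards.

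Genes that act with olfactory receptors in the nose were called in both directions. Of the 26 genes of an olfactory transduction list, 23 were tested at 155 days, where 2 were higher and 10 lower in untreated G93A mice (median log2 fold change -0.23, against 0 over all genes) and 3 were higher and 8 lower in treated ones (median -0.17, against 0.02). Over all genes tested, 39.5% were called in untreated and 41.5% in treated mice, with 21.3% and 23.3% higher. Gnal, the olfactory G protein alpha subunit that neurons of the brain use as well, was lower by 0.55 (standard error 0.14) in untreated and by 0.63 in treated mice on the log2 scale, with 75.1 to 102 CPM in WT and 42 to 75.3 CPM in G93A mice. Adcy3 was lower by 0.48 and 0.43, and Gng13, a gamma subunit, was lower in untreated mice (log2 fold change -0.92). The receptor export factor Reep1, the phosphodiesterase Pde4a, the receptor kinase Grk3 and the beta subunit Gnb1 were lower in both treatments, Gnas and Camk2a were lower in untreated mice, and Ric8b, which promotes exchange on G proteins, was lower in treated mice. Slc24a4, a sodium, potassium and calcium exchanger, was higher by 1.56 and 1.82, and Arrb2, the beta-arrestin 2 gene, by 0.27 and 0.40. Ldb1, a transcriptional cofactor of receptor choice, was higher in treated mice. No gene of the list passed the interaction test, so a call in 1 treatment and not in the other shows no difference between them. With age, 8 of 23 were higher and 0 lower in untreated WT mice and 9 higher and 2 lower in treated WT mice, against 24.9% and 31.3% of all genes called. Gnal, Adcy3, Gnb1, Ric8b, Reep1 and Kdm1a were higher in both, Pde1c in untreated mice, and Grk3 and Lhx2 in treated mice, where Gng13 and Arrb2 were lower. In G93A mice Slc24a4, Ldb1 and Kdm1a were higher with age, and Gng13 and Ebf1 lower, in both treatments, and Grk3 was lower in treated mice. Over all genes 33.7% were called with age in untreated and 32.9% in treated G93A mice. Calls in the list were thus no more common there than over all genes.

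Genes that define olfactory sensory neurons had no higher summed level in G93A than in WT mice at 155 days. Cnga2 summed to 56 reads in the 8 WT and 53 in the 8 G93A mice at 155 days, Rtp1, a receptor chaperone, to 31 and 14, and Rtp2 to 5 and 14. Omp, the olfactory marker protein gene, had a median of 0.778 CPM in WT and 0.677 CPM in G93A mice and was not called. Over the 8 genes of the sensory neuron list, the summed level was 8.05 to 17 CPM in WT and 6.43 to 7.59 CPM in G93A mice. Gng13 held the most reads of the list, with 74 to 309 in each mouse at this age. Of the 6 tested, none was higher in either treatment and Gng13 was lower in untreated mice, where 39.5% of all genes were called. Gng13 had a median of 5.65 CPM in WT mice, but 13.4 CPM in the highest, an untreated one. The call without that mouse was not examined.

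Microglial genes were higher in the same mice as the pair. All 12 genes of a homeostatic microglia list (P2ry12, Tmem119, Cx3cr1 and others) were higher in G93A mice at 155 days in both treatments, with a median log2 fold change of 1.64 in untreated and 1.71 in treated mice. All 12 of a disease-associated list (Cst7, Itgax, Clec7a and others) were higher as well, with medians of 4.31 and 4.52. Their summed level was 2980 to 4110 CPM in WT and 12200 to 27300 CPM in G93A mice. At 90 days 1 of these 12, Lgals3 (the galectin-3 gene), was higher in G93A mice with the treatments averaged (log2 fold change 1.95, standard error 0.27, edgeR adjusted p = 0.00473), and 0 of the 12 homeostatic genes were called, with a median of 0.21. Lists of other cell types also held calls at 155 days, where 39.5% of all genes were called in untreated and 41.5% in treated mice. Of 8 astrocyte genes 7 were higher in untreated and 6 in treated mice, and of 8 neuronal genes 7 and 8 were lower. Of the border or infiltrating macrophage genes 5 of 9 were tested, of which 1 and 2 were higher, and their summed level was 2.55 to 4.24 CPM in WT and 3.97 to 6.6 CPM in G93A mice. Of the T and NK cell genes 3 of 8 were tested and 2 were higher in both, and their summed level was 1.94 to 3.58 CPM in WT and 3.87 to 5.29 CPM in G93A mice. Of 7 oligodendrocyte genes 2 were higher. Of 9 caudal Hox genes, which mark the level of the cord, 4 were lower in untreated and 6 in treated G93A mice, with a summed level of 60.0 to 204 CPM in G93A and 223 to 311 CPM in WT mice. The Hox score, the mean log2(CPM + 1) of the 9 genes, was 1.63 to 3.61 in G93A and 3.76 to 4.54 in WT mice at this age, so the level of the cord that was sampled and the genotype cannot be told apart. The part of these cell types in the counts of the pair was not tested, and whole-tissue RNA does not say which cells the reads came from.

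Within the 8 G93A mice at 155 days, which form 1 cluster apart from the rest, mice with more Olfr111 tended to have a higher disease-associated score, the mean log2(CPM + 1) of the 12 genes. Pearson's r was 0.79 (exact permutation p = 0.0191, and 0.134 adjusted over 7 relations), and Spearman's rho was 0.57 (exact permutation p = 0.151, adjusted 0.299). Without the 2 mice farthest from the median score, r was 0.78 (exact permutation p = 0.0528), and within treatments it was 0.79. The relation did not pass the adjustment. For the homeostatic score r was 0.54 and rho 0.55 (exact permutation p = 0.164 and 0.171). Olfr111 and Olfr110 correlated at r = 0.64 and rho = 0.67 (exact permutation p = 0.0895 and 0.0831). Part of their sequence is identical, so their counts may not be independent. Olfr110 gave r = 0.24 with the homeostatic and r = 0.31 with the disease-associated score (exact permutation p = 0.574 and 0.46), and rho was 0.048 and -0.048. The caudal Hox score gave r = -0.68 with Olfr110 and r = -0.40 with Olfr111 (exact permutation p = 0.0678 and 0.337). The plot of Olfr111 against the score shows the 32 mice.

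**Figure D4:**
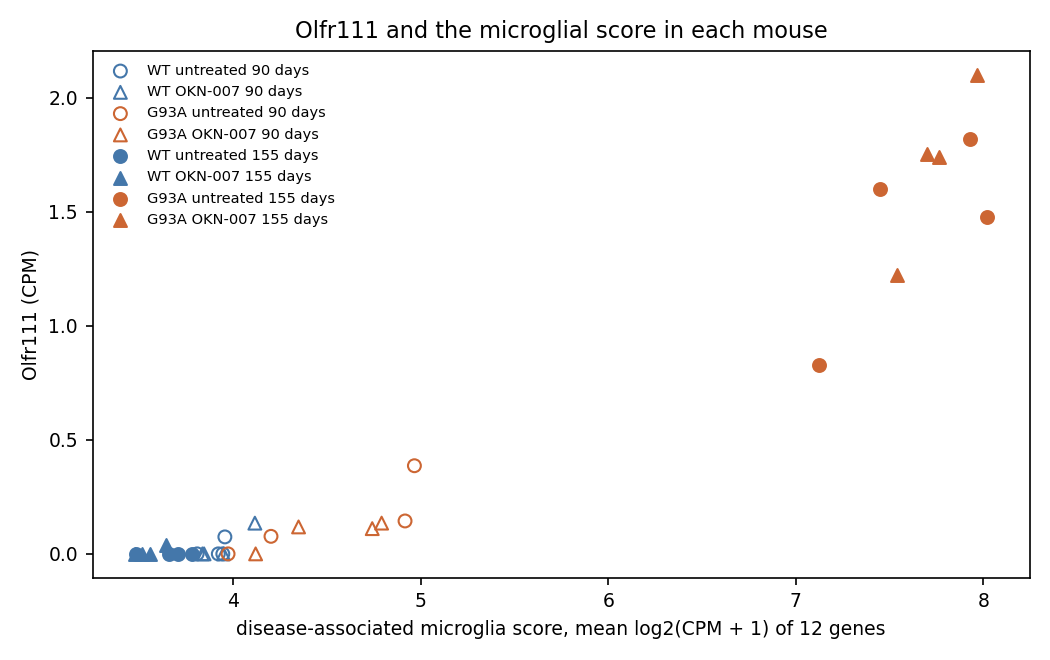
Olfr111 in CPM (vertical axis) against the disease-associated microglia score, the mean log2(CPM + 1) of 12 genes (horizontal axis), 1 point per mouse, with open symbols for 90 days, filled for 155 days, circles for untreated, triangles for OKN-007, blue for WT and orange for G93A. The 8 G93A mice at 155 days form a separate cluster with scores of 7.12 to 8.02 and 0.826 to 2.1 CPM, and all other mice have scores up to 4.97.

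Patterns over the 32 mice were compared with those of 19828 genes for Olfr111 and 19829 for Olfr110. Most like Olfr111 were Gpnmb, a transmembrane glycoprotein of activated macrophages, Gusb, the lysosomal beta-glucuronidase, and Mcoln3, a lysosomal cation channel. Next came Lyn, a myeloid tyrosine kinase, and Cd200r4, a myeloid activating receptor. Likeness was the mean absolute difference over mice after scaling log2(CPM + 1) from 0 at the lowest to 1 at the highest group mean. It was 0.0498 for Gpnmb, 0.053 for Cd200r4 and 0.0764 for the 100th gene, so many other genes lay nearly as close. Absolute levels of the 5 genes differed widely. Gpnmb went from 1.44 CPM in untreated WT to 219 CPM in untreated G93A mice at 155 days, and Cd200r4 from 0.00955 to 2.93 CPM. Cd200r4 had at most 0.0228 CPM in a 90-day group, and Mcoln3 at most 0.162 CPM. For Olfr110 the nearest was Olfr111 (distance 0.123), followed by Sgca, a sarcoglycan gene, Mmp12, the macrophage metalloelastase, the chemokine gene Ccl4 and Il1rn, the interleukin-1 receptor antagonist (0.136). The 100th gene for Olfr110 was at 0.157. Mmp12 had 0.0756 CPM in untreated WT and 16.8 CPM in untreated G93A mice at 155 days. With 0.1 in place of 1 added to the CPM, only 1 of the 5 genes remained in each list, so that the order among them depends on the scale. The plot of scaled profiles shows both sets.

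**Figure D5:**
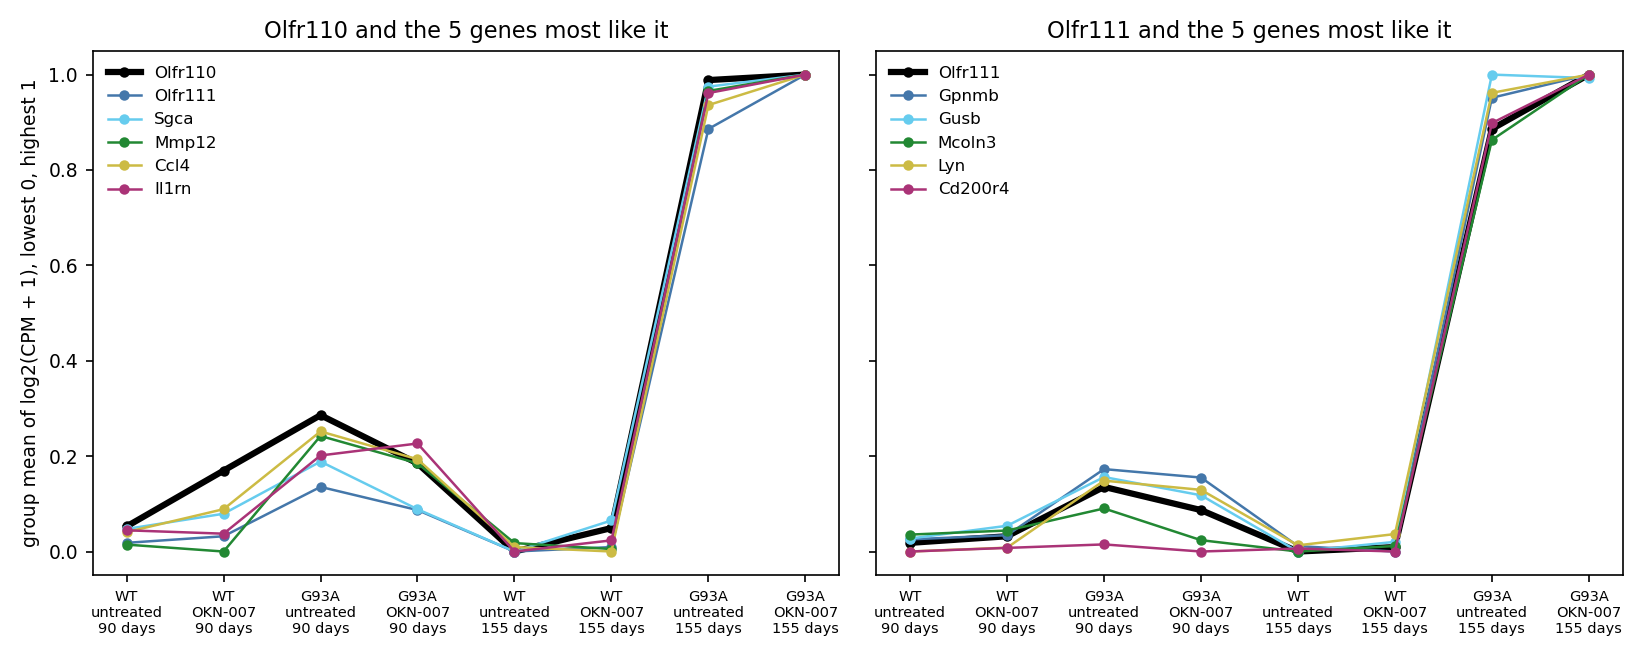
Group means of log2(CPM + 1), scaled from 0 at the lowest to 1 at the highest group (vertical axis), over the 8 groups of 4 mice (horizontal axis; lines join the groups of a gene and are not a time course) for Olfr110 (left) and Olfr111 (right) in black and the 5 genes most like each in colour. All lie near 0 in WT mice at 155 days and near 1 in G93A mice at 155 days, and the 90-day G93A groups lie between 0 and 0.286.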

How the data were processed

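Polyadenylated RNA from spinal cord of 32 mice was sequenced after stranded library preparation (TruSeq Stranded mRNA). The authors deposited raw gene counts, whole numbers per gene and mouse, with no normalization. The sources used here conflict on how they were made. The study's methods give STAR (alignment to GRCm38) and HTSeq, whereas the submitters' processing notes list STAR, featureCounts and the GRCm39, mm39 and hg38 builds. Coordinates and sequences are therefore those of GENCODE M21 on GRCm38, through which 41203 of 42524 gene IDs (96.9%) were paired with a symbol, and 1306 IDs are newer than that release. No protein sequence was used. Coding sequences and 1 gene of the transduction list are not reported here. Total counts ranged from 19701722 to 30138257 per library, and intervals and floors of 3 counts cover counting error only. 0 columns of the table were left unassigned.

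Counts were tested with edgeR 4.0.16 (R 4.3.3; filterByExpr, TMM, quasi-likelihood F test, Benjamini-Hochberg adjusted p under 0.05), with the 4 groups of an age in a fit and all 8 groups for comparisons of age. On simulated counts with known changes the script recovered most of the changed genes. Both members, whether or not they passed the filter, were also tested by exact two-sided permutation of log2(CPM + 0.5) (SciPy 1.17.1, 70 splits for 4 against 4). CPM were computed here with TMM factors. Alternatives were DESeq2 1.42.0, other size factors, no filter, other sets of mice, a Hox covariate, a replicate block and leaving out each mouse. Mouse numbers 1 to 16 recur at both ages, but the ages are different animals and only 3 of 16 same-numbered pairs deviated together (correlation over 0.1). Nothing in the labels says that mice of a group were littermates or apart, so p-values measure the spread between these mice.

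The members, gene lists and tests were chosen with earlier results of these data known, so they are no independent evidence of direction. Named were the members in each group, the other olfactory receptor genes that passed the filter at either age, the 3 nearest family genes on each side, the 5 genes with the most similar profile to each member, the transduction genes past the threshold, and Gnal, Adcy3, Cnga2, Rtp1, Rtp2 and Omp.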

Additional observations from a re-analysis of the deposited data

Results flagged for a closer look

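In groups of 4 mice, 8 values stood apart from the other 3 mice of their group by Dixon's criterion at 95%, among 38 groups tested. Of these, 7 are 1 mouse with reads in a group otherwise at 0, which meets the criterion whatever the count, so that the chance rate of about 1 in 20 groups does not apply to them. For Olfr110 they were 0.04 CPM in an untreated WT mouse (number 4), 0.135 CPM in a treated WT mouse (number 5) and 0.148 CPM in a treated G93A mouse (number 15) at 90 days, and 0.0373 CPM in a treated WT mouse (number 7) at 155 days. For Olfr111 they were 0.0744 CPM in an untreated WT mouse (number 3) and 0.135 CPM in treated WT mouse 5 at 90 days, and 0.0373 CPM in treated WT mouse 7 at 155 days. Mice 5 and 7 held reads of both genes. The remaining value was the homeostatic microglia score of treated G93A mouse 13 at 155 days, 6.09 against 5.94 in the next mouse, and this mouse also had the highest count of Olfr111 (62 reads).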

How the results depend on the processing

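The choice of Olfr111 fixed the direction of its difference in treated G93A against WT mice at 155 days and in treated G93A mice with age, so that the range of these values is given as a description. In the first the log2 fold change ran from 6.63 to 7.27 over the other settings and from 6.68 to 8.55 when a mouse was left out. In the second, with the mouse number as a replicate block, it was 4.13 (edgeR adjusted p = 0.000265), and the same block changed no call of Olfr111 with age in the other groups. For the untreated mice at 155 days the fitted value moved from 8.27 to 7.68 with DESeq2 and to 7.88 with the Hox covariate, and the cause was not tested.

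Results that rest on single reads moved most. Leaving out 1 mouse gave a log2 change of Olfr111 from 0 to 1.86 for OKN-007 in WT mice at 155 days, from -1.59 to 0.28 for the interaction (0.275 without treated WT mouse 7), from -2.65 to 0 with age in untreated WT, from -2.95 to 1.56 with age in treated WT (1.556 without mouse 5 of 90 days), and from 2.8 to 4.31 with age in untreated G93A mice (4.31 without mouse 11 and 2.8 without mouse 12 of 90 days). On the log2(CPM + 0.5) scale, differences that did not pass an exact permutation test also moved, in part across 0. For Olfr110 they ran from -0.047 to 0.091 (OKN-007 in G93A, 155 days), 0 to 0.035 (OKN-007 in WT, 155 days), -0.086 to 0.093 (treated G93A against WT, 90 days), -0.146 to 0.009 (OKN-007 in G93A, 90 days) and -0.028 to 0.087 (OKN-007 in WT, 90 days). For Olfr111 they ran from 0 to 0.035 (OKN-007 in WT, 155 days), -0.231 to 0.044 (OKN-007 in G93A, 90 days) and -0.05 to 0.086 (OKN-007 in WT, 90 days). Untreated G93A against WT at 90 days ran from 0.141 to 0.416 for Olfr111 (exact permutation p = 0.0286 without G93A mouse 12). The difference with treatments averaged at 90 days ran from 0.145 to 0.282, was 0.227 with other size factors (exact permutation p = 0.0535), and was fitted by edgeR as 2.03 on the log2 scale both with no filter (2.026) and with all 32 mice (2.031), where adjusted p was 0.758 and 0.466.

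Within the 8 G93A mice the relations were computed on ranks and with fewer mice. Spearman's rho was -0.048 for Olfr110 and 0.571 for Olfr111 with the disease-associated score. Without the 2 farthest mice Pearson's r was 0.778 for Olfr111 with that score, 0.83 with the homeostatic score and 0.838 with Olfr110.

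Few genes were called for OKN-007 or at 90 days in any setting. With no filter edgeR called 17 (OKN-007 in G93A), 10 (in WT) and 8 (interaction) genes at 155 days, and 39, 24 and 110 genes for genotype in untreated, treated and averaged mice, 8 and 14 for OKN-007 in G93A and WT mice and 3 for the interaction at 90 days. DESeq2 called 16, 3 and 66 genes for genotype at 90 days, and the fit of all 32 mice called 1 gene in untreated mice and 21 averaged, against 0, 0 and 5 in the tests reported. The averaged count ran from 3 to 54 when a mouse was left out. That fit also called 2 genes for OKN-007 in WT mice and 1 for the interaction at 155 days, and a fit of the compared groups alone called 3 genes in treated mice at 90 days. In the smallest library a level under 0.152 CPM cannot be told from 0.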
